A study of Mus musculus with 4 samples.

Results

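The genes described here encode the proteins of the mitochondrial ribosome. They were chosen by name: rows of the expression table whose symbol begins with Mrpl or Mrps followed by a number, which gave 77 of 35869 rows. The rule uses names and no measured value, though it was proposed with earlier results of these data known. RNA was sequenced from cortical oligodendrocytes, the glial cells that make myelin in the brain, taken from mice at postnatal day 5 by flow sorting on the surface lipids O4 and GalC. One group, labelled Zfp488 KO, carried a knock-in allele on both copies of Zfp488 (Zfp488KI/KI, 2 libraries, KO 1 and KO 2), and the controls were labelled WT (2 libraries, WT 1 and WT 2). The purpose named in the title is the part that the zinc finger protein ZFP488 plays in the timing of myelination. The labels name brain as the tissue, call the sorted cells a cell line as well, and give no strain, no design of the allele and no number of animals. Nothing states that the libraries of a genotype came from separate animals. The p-values set the genotype difference against variation between libraries, and that variation may be purely technical. The Zfp488 transcript was at 4.82 and 4.11 FPKM in KO 1 and KO 2, against 6.61 and 5.29 FPKM in WT 1 and WT 2, a difference that did not pass the test (log2 fold change -0.34, SE 0.33, limma adjusted p = 0.95). Where the allele interrupts the transcript is not given, so this level is a weak check of the genotype.

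Mitochondria keep their own ribosome, which translates the few messages of the mitochondrial genome into core subunits of the respiratory chain and of ATP synthase. Its RNAs are made inside the organelle, whereas its proteins are encoded in the nucleus, made in the cytosol and imported. Some of these proteins descend from bacterial ribosomal proteins and others were added during the evolution of mitochondria. Differentiating oligodendrocytes build large amounts of membrane and depend on mitochondrial metabolism. Names and places do not always match: Mrps18a and Mrps30 sit in the large subunit, and Mrps36 is now known as a component of the 2-oxoglutarate dehydrogenase complex and is not part of the ribosome. By these places the 77 genes comprised 50 of the large subunit, 26 of the small subunit and Mrps36. Of the large subunit genes, 30 have a bacterial counterpart and 20 are specific to mitochondria. Of the small subunit genes, 16 have a bacterial counterpart and 10 are specific to mitochondria. Mrps18a and Mrps18b, although relatives of bacterial S18, were counted here and below as specific to mitochondria.

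The 77 genes are scattered over 17 chromosomes (GENCODE annotation of GRCm38). For 18 of them (23.4%) a protein-coding gene that points the other way started within 1000 bp upstream, against 11.1% of 9073 tested protein-coding genes. Pairs that overlap head to head, such as Mrpl46 and Mrps11, were not counted. The RefSeq table of promoters (GRCm38.p6, 250 bases before to 50 after the start) held 68 of the 77. They were searched on both strands for short cores of the motifs of factors known to act on mitochondrial genes, namely GCATGCGC for NRF1, CCGGAAG for ETS factors such as GABPA, and AANATGGC for YY1. The last letters of the ETS core can also begin the YY1 core, and a match describes letters only. The ETS core was in 25 of 68 promoters (36.8%), against 21.1% of the genes tested here and 9.93% of all genes in the table. The YY1 core was in 20 (29.4%), against 10.8% and 6.96%. The NRF1 core was in 8 (11.8%), against 6.48% and 3.05%. In 27 of the 68 none of these cores was found and in 0 were all of them found.

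The promoters below were chosen by the unadjusted p of their genes, none of which passed the test, or because they show the motifs. Mrpl41 and Mrpl53 are the genes with lower values in KO and the smallest p that have a promoter in the table, and Mrps2 is the corresponding gene with higher values. Mrps12 and Mrps18b were added for their motifs, after the search. Each is printed 5′ to 3′ on the strand of its gene, with motif letters in capitals.
Mrpl41 (chr2:24975049-24975348, minus strand): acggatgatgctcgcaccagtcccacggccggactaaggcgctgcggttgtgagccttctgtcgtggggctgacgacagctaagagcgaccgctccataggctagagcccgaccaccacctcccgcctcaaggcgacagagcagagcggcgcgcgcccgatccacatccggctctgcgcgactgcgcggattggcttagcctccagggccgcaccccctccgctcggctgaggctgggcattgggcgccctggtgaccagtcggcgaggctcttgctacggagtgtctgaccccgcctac
Mrpl53 (chr6:83108858-83109157, plus strand): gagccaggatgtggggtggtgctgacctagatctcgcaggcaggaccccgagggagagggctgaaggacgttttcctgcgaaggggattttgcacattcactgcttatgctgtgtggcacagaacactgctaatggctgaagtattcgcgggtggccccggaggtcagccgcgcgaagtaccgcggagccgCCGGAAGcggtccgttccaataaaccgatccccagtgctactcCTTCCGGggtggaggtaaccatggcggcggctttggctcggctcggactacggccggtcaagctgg
Mrps2 (chr2:28467816-28468115, plus strand): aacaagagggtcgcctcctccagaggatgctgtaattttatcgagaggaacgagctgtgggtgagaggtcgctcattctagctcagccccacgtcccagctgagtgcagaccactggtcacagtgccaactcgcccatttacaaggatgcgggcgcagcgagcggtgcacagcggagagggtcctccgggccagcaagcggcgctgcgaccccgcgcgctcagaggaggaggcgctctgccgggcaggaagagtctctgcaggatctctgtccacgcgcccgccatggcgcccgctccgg
Mrps12 (chr7:28741772-28742071, minus strand): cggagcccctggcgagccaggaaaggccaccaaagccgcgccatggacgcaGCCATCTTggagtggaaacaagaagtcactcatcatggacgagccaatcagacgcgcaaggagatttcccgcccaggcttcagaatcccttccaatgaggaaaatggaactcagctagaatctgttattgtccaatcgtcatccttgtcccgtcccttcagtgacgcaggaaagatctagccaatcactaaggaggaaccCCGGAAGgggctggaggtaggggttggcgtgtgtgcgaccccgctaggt
Mrps18b (chr17:35916391-35916690, minus strand): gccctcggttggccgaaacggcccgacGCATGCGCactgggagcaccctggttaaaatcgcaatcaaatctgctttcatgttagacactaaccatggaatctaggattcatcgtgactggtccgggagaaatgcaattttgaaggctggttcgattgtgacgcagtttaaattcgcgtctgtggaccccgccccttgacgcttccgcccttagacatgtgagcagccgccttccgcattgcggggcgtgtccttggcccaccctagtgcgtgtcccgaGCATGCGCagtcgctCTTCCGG

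In the Mrpl53 promoter the capitals are the ETS core, once on each strand, beginning 59 and 16 bases upstream of the RefSeq start. The GENCODE gene begins earlier, at 83109040, so by that annotation both cores lie inside the gene. The Mrps12 promoter holds the YY1 core on the reverse strand and the ETS core just inside the transcript. Mrps12, a protein of the decoding centre, starts within 1000 bp of Sars2, which encodes the mitochondrial seryl-tRNA synthetase and points the other way. The Mrps18b promoter holds the NRF1 core at both ends of the window and the ETS core at its end. The windows of Mrpl41 and Mrps2 held none of these letters.

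All 77 genes were expressed in every library and all passed the filter on low values, which kept rows reaching 1 FPKM in 2 or more libraries. FPKM counts fragments relative to transcript length and library size. Their median level was 33.3 and 36.2 FPKM in KO 1 and KO 2, against 44.5 and 39.9 FPKM in WT 1 and WT 2. Summed over the 77 genes, the level was 3861 and 3951 FPKM in the KO libraries, against 4599 and 4489 FPKM in the WT libraries. As a share of the summed FPKM of all rows this was 1.24% and 1.23% in KO, against 1.37% and 1.32% in WT. Both KO libraries were thus below both WT libraries in the sum and in its share. In bulk libraries such as these, fewer cells of a type and less RNA per cell cannot be told apart.

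**Figure D1:**
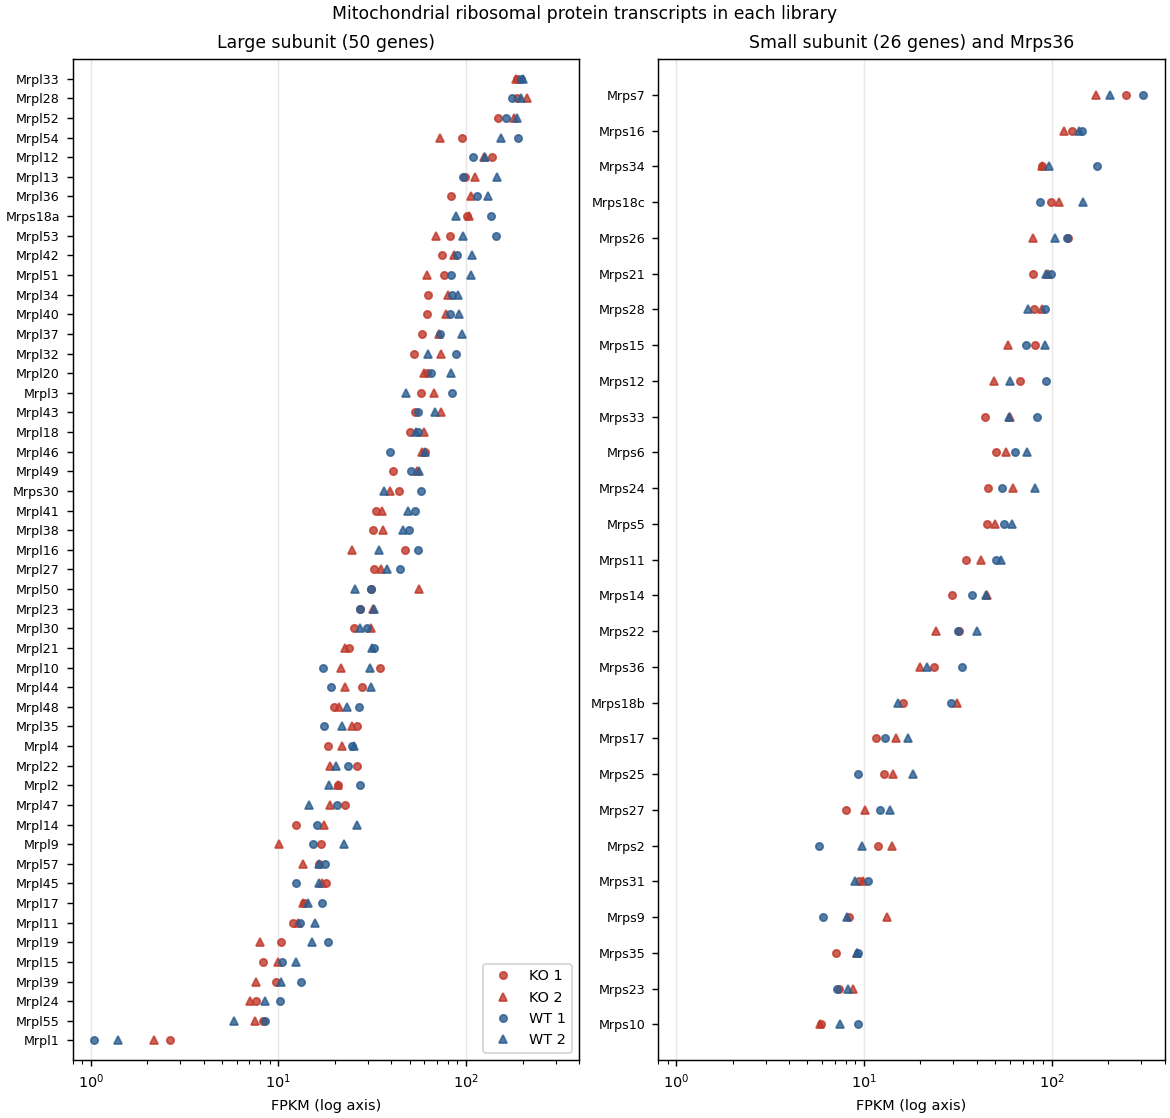
Level of each of the 77 genes in each library, in FPKM on a log axis, with large subunit genes on the left and small subunit genes and Mrps36 on the right, ordered by mean. Red marks are KO and blue marks WT, circles are libraries numbered 1 and triangles libraries numbered 2. Levels run between 1.04 FPKM (Mrpl1 in WT 1) and 306 FPKM (Mrps7 in WT 1), and for most genes the marks of the genotypes interleave.

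Although a mitochondrial ribosome holds nearly all of these proteins once, their transcripts spanned a wide range in FPKM. Mrps7, a protein of the head of the small subunit, had the highest mean, with 248.6 and 173 FPKM in KO 1 and KO 2 and 306 and 205 FPKM in WT 1 and WT 2. Libraries numbered 1 were the higher of each genotype for this gene, and the groups overlapped (log2 fold change -0.27, SE 0.27, limma adjusted p = 0.953). Mrpl33, a small protein with a bacterial counterpart, was the steadiest of the abundant genes, with 188 and 185 FPKM in KO and 197 and 202 FPKM in WT. Its groups did not overlap, but the difference was only -0.10 on the log2 scale (SE 0.13), and its sign turned with rescaling to TPM and with quantile normalization. Mrpl28, which also has a bacterial counterpart, was at 186 and 210.0 FPKM in KO and at 175 and 197 FPKM in WT (log2 fold change 0.09, SE 0.15). Mrpl52, specific to mitochondria, was at 148 and 180.5 FPKM in KO and at 163 and 187 FPKM in WT (log2 fold change -0.10, SE 0.17), and its sign too turned with both rescalings. Mrps16, a small subunit protein with a bacterial counterpart, was at 128 and 117 FPKM in KO and at 145 and 141 FPKM in WT, with no overlap (log2 fold change -0.22, SE 0.15, adjusted p = 0.928). The 6 genes of highest mean, which include Mrpl54 (below), held between 23.7% and 25.7% of the summed level in each library. At the other end Mrpl1, which forms the mobile L1 stalk, had the lowest level.

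The comparison of KO with WT asked whether these transcripts differ when Zfp488 is disrupted. None of the 77 genes passed the test: 0 had a limma adjusted p under 0.05, as did 0 of all 10754 tested rows (0%), and 3 had an unadjusted p under 0.05, against 5.65% of all tested rows (608 rows). All 3 were lower in KO, a direction with 2.85% of all tested rows, and 0 were higher, against 2.81%. Most had lower values in KO. Of the 77 log2 fold changes 58 were negative and 19 positive, with a median of -0.19 and quartiles of -0.35 and -0.003, beside a median of 0.00 over all tested rows. Both KO libraries were below both WT libraries for 29 genes (37.7%), against 18.3% of all tested rows. Both KO libraries were above both WT libraries for 5 genes (6.49%), against 16.6% of all tested rows, and the groups overlapped for 43. With the libraries rescaled to TPM these counts were 20 (25.97%, against 13.1% of all rows) and 9 (11.7%, against 21.7% of all rows). The median of the 77 genes was then -0.10 and that of all rows 0.095. Relative to all rows, the median of the 77 genes was -0.19 with FPKM and with TPM. That likeness was set in advance, since the rescaling multiplies all rows of a library by the same factor. The median size of the difference between genotypes, taken between means of 2 libraries, was 0.28 on the log2 scale. Between single libraries of a genotype it was 0.24 (KO 2 and KO 1) and 0.28 (WT 2 and WT 1). These sizes are not like for like, since a mean of 2 libraries varies less than 1 library. Over all tested rows they were 0.27 between genotypes, and 0.37 and 0.40 between the libraries of KO and of WT.

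The subunits gave similar medians. The 50 large subunit genes had a median log2 fold change of -0.19, with 22 below and 3 above (44% and 6%). The 26 small subunit genes had a median of -0.20, with 7 below and 2 above (26.9% and 7.69%). By origin, the 46 genes with a bacterial counterpart had a median of -0.20, with 17 below and 4 above (37.0% and 8.70%). The 31 specific to mitochondria had a median of -0.19, with 12 below and 1 above (38.7% and 3.23%). Of all tested rows 18.3% were below and 16.6% above. No test of a difference between these classes was made.

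Among the large subunit genes with lower values, Mrpl54 had the largest difference of all 77. It encodes a protein specific to mitochondria (chromosome 10, 81264713 to 81266934, minus strand). It was at 95.5 and 72.7 FPKM in KO 1 and KO 2, against 189 and 153 FPKM in WT 1 and WT 2 (log2 fold change -1.02, SE 0.21, limma unadjusted p = 0.0048, adjusted p = 0.859). Both KO values lay far under the lower WT value. Apba3, which starts beside Mrpl54, points the other way and encodes an adaptor protein, was at 7.06 and 4.49 FPKM in KO and at 6.03 and 3.12 FPKM in WT, with overlap (log2 fold change 0.31).

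Mrpl41, also specific to mitochondria (chromosome 2, 24974117 to 24975098, minus strand), was at 33.3 and 35.5 FPKM in KO and at 53.7 and 49.0 FPKM in WT (log2 fold change -0.56, SE 0.20, adjusted p = 0.859). The gap between genotypes was wider than that between libraries of either one. Mrpl19, the counterpart of a bacterial protein at the interface of the subunits (chromosome 6, 81957851 to 81965958, minus strand), was at 10.4 and 8.02 FPKM in KO and at 18.3 and 15.1 FPKM in WT (log2 fold change -0.80, SE 0.29, adjusted p = 0.87). Mrpl53, specific to mitochondria (chromosome 6, 83109040 to 83109939, plus strand), was at 82.1 and 69.2 FPKM in KO and at 145 and 96.4 FPKM in WT (log2 fold change -0.64, SE 0.25, adjusted p = 0.885). WT 1 was well above WT 2 for this gene, and without WT 1 the log2 fold change was -0.35. Mrpl38, a protein of the central protuberance (chromosome 11, 116131817 to 116138868, minus strand), was at 32.0 and 36.2 FPKM in KO and at 49.6 and 46.3 FPKM in WT (log2 fold change -0.48, SE 0.20, adjusted p = 0.885).

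The next genes in order of p had smaller differences. Mrpl21, with a bacterial counterpart, was at 23.6 and 22.7 FPKM in KO and at 32.1 and 31.5 FPKM in WT, so that each genotype was tight (log2 fold change -0.44, SE 0.21). Mrpl51, specific to mitochondria, was at 76.7 and 62.1 FPKM in KO and at 83.0 and 106 FPKM in WT (log2 fold change -0.44, SE 0.22). Mrpl36, with a bacterial counterpart, was at 82.9 and 107 FPKM in KO and at 114 and 130.3 FPKM in WT (log2 fold change -0.37, SE 0.20). For Mrpl51 and Mrpl36 the closest values of the genotypes nearly met, and Mrpl51 was at -0.29 without KO 2 and at -0.26 without WT 2, and Mrpl36 at -0.19 without KO 1. In the small subunit, Mrps11, a protein of the platform, was at 35.1 and 42.0 FPKM in KO and at 50.3 and 53.4 FPKM in WT (log2 fold change -0.42, SE 0.21). Mrps6, which also has a bacterial counterpart, was at 50.3 and 57.2 FPKM in KO and at 64.0 and 73.9 FPKM in WT (log2 fold change -0.35, SE 0.19). The limma adjusted p was 0.914 for each of the genes in this paragraph.

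**Figure D2:**
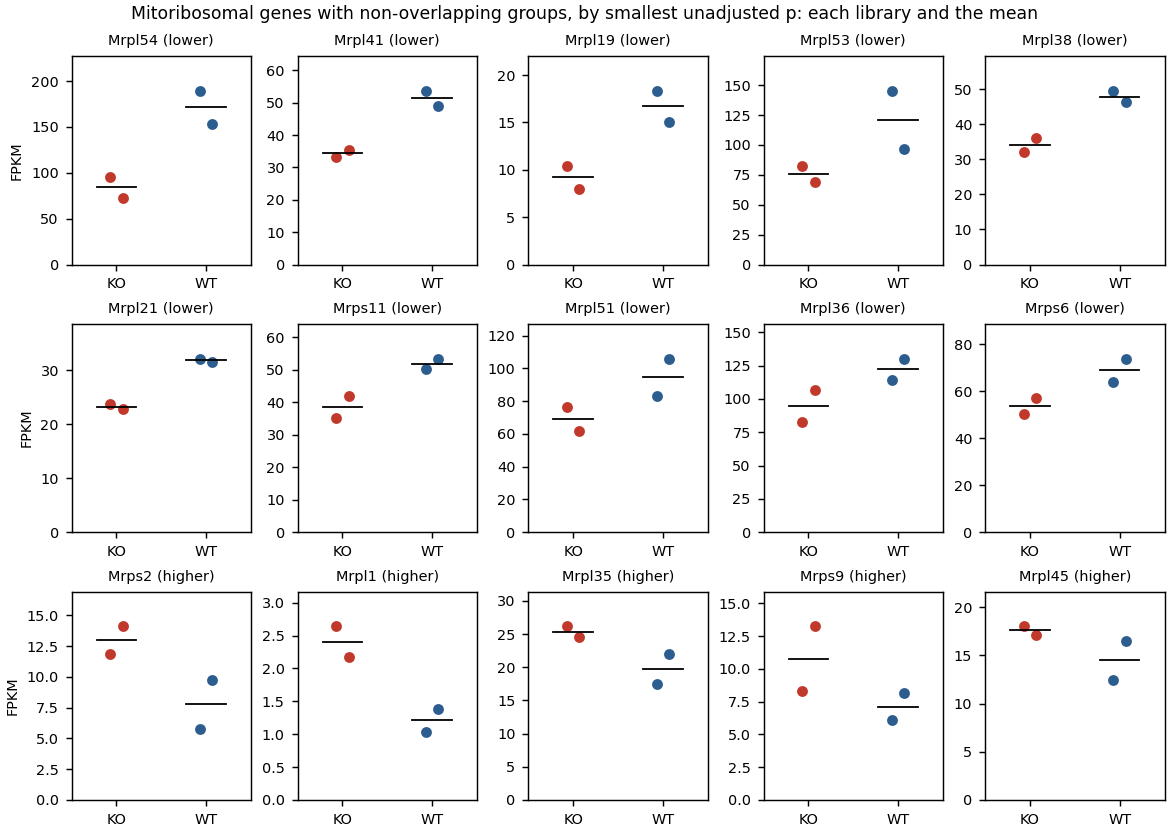
FPKM of 15 genes in each library, with KO on the left and WT on the right of each panel, a dot per library and a bar at the mean of the 2 libraries. The 10 genes with lower and the 5 with higher values in KO were ordered by unadjusted p among those whose groups do not overlap, so the separation seen is part of the choice, and none passed the test (limma adjusted p between 0.859 and 0.95).

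Only 5 genes had both KO libraries above both WT libraries. Mrps2, the counterpart of bacterial S2 (chromosome 2, 28468066 to 28471178, plus strand), was at 11.8 and 14.1 FPKM in KO and at 5.79 and 9.74 FPKM in WT (log2 fold change 0.71, SE 0.35, adjusted p = 0.914). Mrpl1, the gene of lowest level, was at 2.64 and 2.18 FPKM in KO and at 1.04 and 1.39 FPKM in WT (log2 fold change 0.62, SE 0.36, adjusted p = 0.915). Mrps9, a protein of the head, was at 8.32 and 13.2 FPKM in KO and at 6.08 and 8.15 FPKM in WT (log2 fold change 0.52, SE 0.36), with the lower KO value close to the higher WT value. Mrpl35, with a bacterial counterpart, was at 26.2 and 24.5 FPKM in KO and at 17.4 and 21.9 FPKM in WT (log2 fold change 0.36, SE 0.25). Mrpl45, a protein at the exit of the peptide tunnel that faces the inner membrane, was at 18.03 and 17.16 FPKM in KO and at 12.4 and 16.5 FPKM in WT (log2 fold change 0.28, SE 0.27). These differences depended on single libraries: without WT 1 the log2 fold change was 0.38 for Mrps2, 0.20 for Mrpl35, 0.33 for Mrps9 and 0.084 for Mrpl45, and without KO 2 it was 0.21 for Mrps9. That of Mrpl1 moved less, between 0.51 and 0.74 over the libraries left out. All of these were among the 26 genes of lowest level, where 9 genes had both KO libraries below both WT libraries. Among the 26 genes of highest level 12 were below and 0 above, and among the 25 between them 8 were below and 0 above. Of all tested rows 18.3% were below and 16.6% above. Of rows at 5 FPKM or more in at least 2 libraries, 21.7% were below and 14.4% above. Rows of like level were not set beside each of these parts.

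Parts of the ribosome can be read side by side, but each holds few genes, so its share moves far with 1 gene. For scale, 37.7% of the 77 genes were below and 6.49% above, against 18.3% and 16.6% of all tested rows. The 3 genes of the L7/L12 stalk, which recruits translation factors, had a median of 0.16, with 1 below and 0 above. Mrpl12, its tip, was at 137 and 124 FPKM in KO and at 109 and 125 FPKM in WT (log2 fold change 0.16, SE 0.16). Mrpl10, which anchors it, was at 34.8 and 21.5 FPKM in KO and at 17.2 and 30.7 FPKM in WT (log2 fold change 0.24, SE 0.40), with the libraries of each genotype far apart. Mrpl11, at the stalk base, was at 11.97 and 12.68 FPKM in KO and at 13.1 and 15.8 FPKM in WT (log2 fold change -0.21, SE 0.27). Of the 7 genes listed for the central protuberance, 4 had both KO libraries below and 0 above (median -0.28). Beside Mrpl38 these were Mrpl27, Mrpl40 and Mrpl48. Mrpl40, specific to mitochondria, was at 62.0 and 78.1 FPKM in KO and at 81.9 and 92.0 FPKM in WT (log2 fold change -0.31, SE 0.20). Mrpl48, also specific to mitochondria, was at 19.8 and 20.9 FPKM in KO and at 27.0 and 23.3 FPKM in WT (log2 fold change -0.29, SE 0.23). For both the gap between the closest values of the genotypes was smaller than that between the WT libraries. Of the 6 genes listed for the tunnel exit, 2 were below and 1 above (median 0.01). No test of these sites as groups was made.

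Mammals have 3 relatives of bacterial S18, and their transcripts did not separate by genotype. Mrps18a, in the large subunit, was at 101 and 104 FPKM in KO and at 136 and 88.3 FPKM in WT (log2 fold change -0.09, SE 0.25), with a sign that turned under both rescalings. Mrps18c, the closest in position to the bacterial protein, was at 99.4 and 110 FPKM in KO and at 87.0 and 147 FPKM in WT (log2 fold change -0.12, SE 0.28). Mrps18b was at 16.1 and 31.5 FPKM in KO and at 29.1 and 15.1 FPKM in WT (log2 fold change 0.10, SE 0.47). For each of them the 2 WT libraries differed more than the genotype means. The same held for Mrps30, which was at 44.0 and 39.4 FPKM in KO and at 57.6 and 36.6 FPKM in WT (log2 fold change -0.14, SE 0.28). Mrps36 was at 23.8 and 19.9 FPKM in KO and at 33.3 and 21.6 FPKM in WT (log2 fold change -0.29, SE 0.30), also with overlap.

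Short transcripts as a whole had lower values in KO in these libraries, and many of the 77 genes are short. Their longest annotated transcripts had a median of 1849 bp, against 3096 bp for tested protein-coding genes. Among the 26 genes with the shortest transcripts (488 to 1138 bp) 10 were below and 0 above, with a median of -0.29. All 829 tested rows of that length range had a median of -0.23, with 39.2% below and 5.91% above, so the share among these genes (38.5% below) was that of the background. Among the 25 genes of middle length (1219 to 2741 bp) 9 were below and 3 above (36% and 12%), with a median of -0.09. The 3319 rows of that range had a median of -0.06, with 21.5% below and 12.5% above. Among the 26 genes with the longest transcripts (2799 to 7300 bp) 22 log2 fold changes were negative, 10 genes were below (38.5%) and 2 above, with a median of -0.19. The 5061 rows of that range had a median of 0.09, with 12.2% below and 22.1% above. For some genes the longest annotated transcript need not be the one these cells use. After the trends of fold change with length and level were removed by a model over all rows, the median of the 77 genes was -0.14. On that scale 22 genes (28.6%) were below, against 16.7% of all rows, and 13 (16.9%) were above, close to the 15.0% of all rows.

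**Figure D3:**
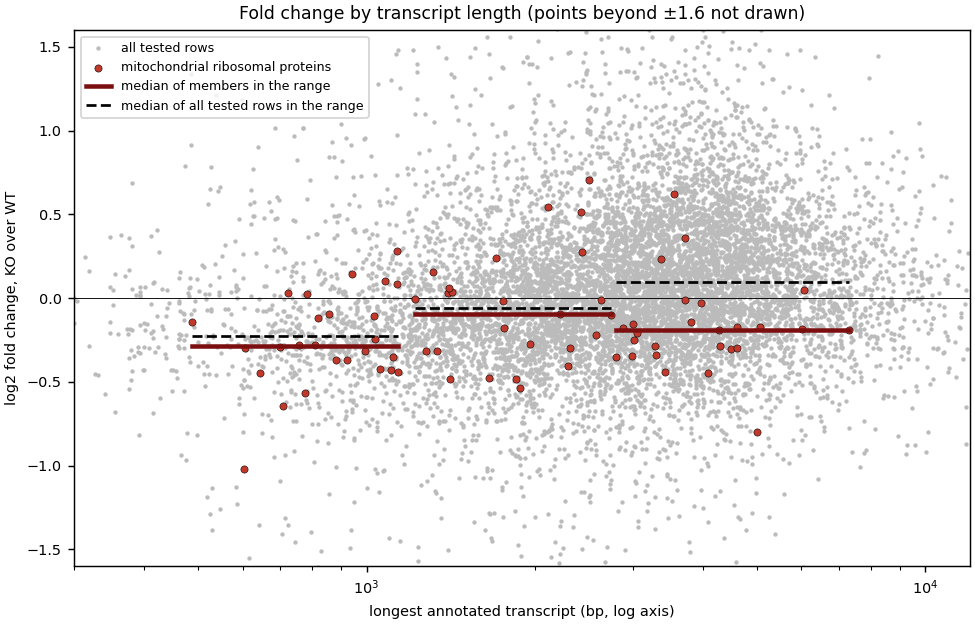
Log2 fold change of KO over WT against the longest annotated transcript, in bp on a log axis. Red points are the 77 genes, grey points all tested rows, solid bars the medians of the 77 genes in 3 length ranges and dashed bars the medians of all tested rows in the same ranges. The bars lie close in the shortest range (-0.29 and -0.23) and apart in the longest (-0.19 and 0.09).

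The strand setting of the counting is not given, so reads of genes that share exon sequence cannot be told apart. Such an overlap with another protein-coding gene was annotated for 23 of the 77 genes. Among them Mrps7 (with Gga3 and Mif4gd), Mrpl19 (Gcfc2), Mrpl21 (Ighmbp2) and Mrpl36 (Ndufs6) share exons with genes of the opposite strand. Mrpl53 (Gm42688), Mrps6 (Gm49711 and Slc5a3) and Mrps34 (Nme3) share exons with genes of the same strand, which no strand setting would separate. Mrpl46 and Mrps11 overlap each other, and their values did not move together: Mrpl46 was at 60.8 and 58.1 FPKM in KO and at 39.5 and 60.2 FPKM in WT (log2 fold change 0.28, SE 0.26). The 54 genes with no such overlap had a median log2 fold change of -0.17, with 19 below and 5 above. For Mrps21, Mrpl22 and Mrpl27 the annotation holds a copy at 95% identity or more over at least 50% of the transcript, so reads could have been shared with it and their values are uncertain. Neighbours that start within 1000 bp upstream of one of the 77 genes and point the other way were tested in 12 pairs. The sign of the fold change was the same in 5. The neighbours with an unadjusted p under 0.05 lay on opposite sides. Eme2, which encodes a subunit of a DNA repair nuclease and starts beside Mrps34, was at 10.1 and 11.7 FPKM in KO and at 2.74 and 0.315 FPKM in WT (log2 fold change 2.42, unadjusted p = 0.0085, adjusted p = 0.859). Mrps34, specific to mitochondria, was itself at 89.3 and 89.0 FPKM in KO and at 174 and 97.2 FPKM in WT (log2 fold change -0.54, SE 0.30). The other neighbour, Fau, which encodes a ubiquitin-like protein fused to a cytosolic ribosomal protein and starts beside Mrpl49, was at 58.2 and 59.6 FPKM in KO and at 92.1 and 84.4 FPKM in WT (log2 fold change -0.57, unadjusted p = 0.0196, adjusted p = 0.859).

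Other protein synthesis and respiratory genes of the same fit are given for scale. Among 78 tested genes of the cytosolic ribosome 67 were below and 0 above (85.9% and 0%), with a median of -0.30. Among 74 tested nuclear genes of the respiratory chain 52 were below and 0 above (70.3% and 0%), with a median of -0.24. The mitochondrial ribosome had a smaller share below (37.7%) and 5 genes above (6.49%), a difference that was not tested. Of all tested rows 18.3% were below and 16.6% above. The sets differed in level, with medians of 151 (cytosolic ribosome), 185 (respiratory chain) and 40.5 FPKM (the 77 genes). Rows of like length were not set beside the cytosolic ribosomal and respiratory genes. All 13 mitochondrially encoded messages, the templates of this ribosome, had negative log2 fold changes (median -0.12), with 2 below and 11 overlapping. The share below (15.4%) was under the 18.3% of all tested rows. Summed, these messages were at 8203 and 6259 FPKM in KO 1 and KO 2, against 7335 and 8157 FPKM in WT 1 and WT 2. KO 1 was thus the highest library and KO 2 the lowest.

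Genes that build or serve the mitochondrial ribosome were read from lists written for this purpose. The counts of each list are to be read beside the shares of all tested rows, 18.3% below and 16.6% above. The 6 ribosomal proteins found under other names had a median of -0.22, with 2 below and 1 above. Among them Aurkaip1, a small subunit protein, was at 41.6 and 41.7 FPKM in KO and at 51.4 and 52.4 FPKM in WT (log2 fold change -0.31, SE 0.19). Chchd1, also of the small subunit, was at 108 and 121 FPKM in KO and at 139 and 131 FPKM in WT (log2 fold change -0.24, SE 0.15). Dap3, a GTP-binding protein of the small subunit, was at 8.798 and 4.001 FPKM in KO and at 8.87 and 6.21 FPKM in WT, with overlap. Gadd45gip1, a large subunit protein near the tunnel exit, was at 46.5 and 44.0 FPKM in KO and at 43.7 and 37.0 FPKM in WT (log2 fold change 0.16, SE 0.21).

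Assembly factors had more positive than negative values (16 and 11 of 27 tested genes, median 0.26), none past the test. Of the 27, 9 were above and 4 below (33.3% and 14.8%), against 16.6% and 18.3% of all tested rows. An unadjusted p under 0.05 was found for 3 of them, and for 5.65% of all tested rows. Rows of like length were not set beside this list. Ybey, an endonuclease needed for the small subunit RNA in human mitochondria, was at 3.43 and 4.18 FPKM in KO and at 0.126 and 0.201 FPKM in WT (log2 fold change 2.04, SE 0.36, unadjusted p = 0.0024, adjusted p = 0.859). Mettl17, a methyltransferase-like protein of small subunit assembly, had the opposite sign, at 19.6 and 11.1 FPKM in KO and at 64.9 and 39.6 FPKM in WT (log2 fold change -1.71, SE 0.39, unadjusted p = 0.0073, adjusted p = 0.859). For Ybey the genotypes were far apart relative to the libraries within them, whereas for Mettl17 the WT libraries differed by more than the closest values of the genotypes. Rpusd4, a pseudouridine synthase of the large subunit RNA, was at 20.0 and 11.4 FPKM in KO and at 3.14 and 11.9 FPKM in WT, with overlap (log2 fold change 1.147, SE 0.63, and 0.33 without WT 1).

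Translation factors gave mixed values: of 16 tested genes 3 were below and 2 above, with a median of -0.14. Taco1, an activator of COX1 translation, was at 3.23 and 2.82 FPKM in KO and at 4.69 and 5.33 FPKM in WT (log2 fold change -0.58, SE 0.33). Tufm, the elongation factor Tu of mitochondria, was at 19.9 and 17.1 FPKM in KO and at 22.1 and 24.1 FPKM in WT (log2 fold change -0.31, SE 0.24). Pdf, which removes the formyl group of new chains, was at 32.9 and 43.0 FPKM in KO and at 75.3 and 38.6 FPKM in WT (log2 fold change -0.51, SE 0.37), with overlap, and its log2 fold change was -0.036 without WT 1. Lrpprc, which stabilizes mitochondrial messages, was at 7.34 and 6.77 FPKM in KO and at 8.11 and 3.06 FPKM in WT (log2 fold change 0.41, SE 0.48). WT 1 and WT 2 lay on either side of the KO libraries for this gene.

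Of 18 tested genes for the charging of mitochondrial tRNAs, 5 were below and 2 above (median -0.10). Ears2, which encodes the glutamyl enzyme, was at 1.087 and 1.002 FPKM in KO and at 2.51 and 3.42 FPKM in WT (log2 fold change -0.95, SE 0.36, adjusted p = 0.87). Both KO libraries were below both WT libraries for this gene. Qrsl1, a subunit of the enzyme that makes glutaminyl-tRNA, was at 5.05 and 9.82 FPKM in KO and at 5.73 and 2.44 FPKM in WT (log2 fold change 0.75, SE 0.51), with overlap, and its log2 fold change was 0.33 without KO 2 and 0.27 without WT 2.

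The upkeep and transcription of mitochondrial DNA showed little separation, with 0 genes below and 1 above among 13 (median -0.05). Tfam, which packages the DNA and starts its transcription, was at 7.58 and 7.26 FPKM in KO and at 3.02 and 7.61 FPKM in WT, with WT 1 apart from the other libraries. Polg and Polg2, the catalytic and accessory subunits of the DNA polymerase, had log2 fold changes of 0.63 (SE 0.50) and -0.54 (SE 0.52). Without WT 1 that of Polg was 0.070. Of 6 tested nuclear regulators 1 was above and 0 below (median -0.04). That gene was Nrf1, the factor whose core was searched in the promoters, at 1.30 and 1.15 FPKM in KO and at 0.922 and 0.361 FPKM in WT (log2 fold change 0.46, SE 0.39, and 0.21 without WT 2). Myc was at 4.17 and 6.83 FPKM in KO and at 8.19 and 4.72 FPKM in WT, and Yy1 at 4.38 and 2.20 FPKM in KO and at 1.49 and 7.21 FPKM in WT, both with overlap.

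**Figure D4:**
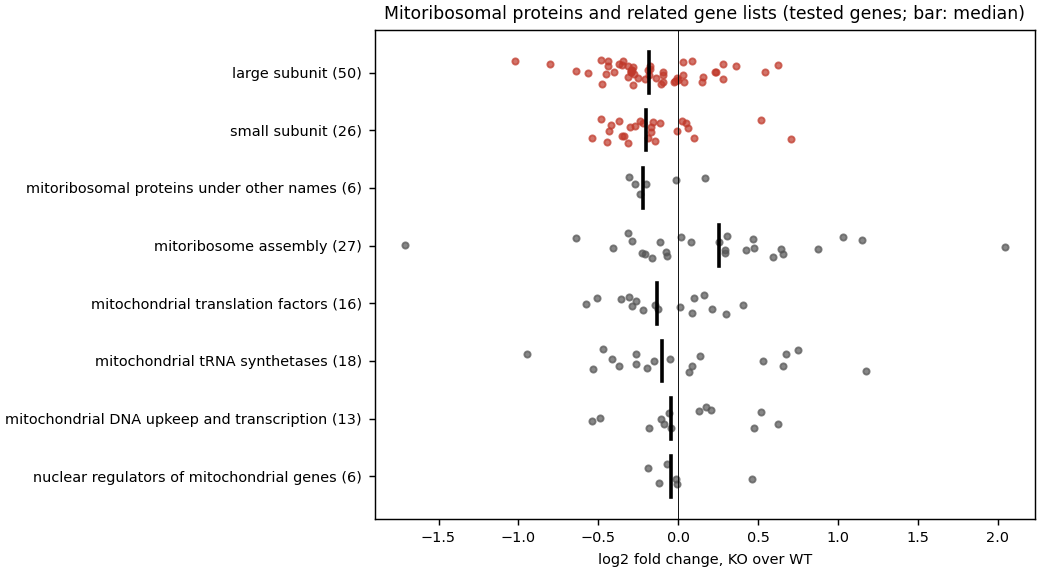
Log2 fold change of KO over WT for the tested genes of each list, with the number of tested genes in brackets, a dot per gene (moved at random up or down to show overlaps) and a bar at the median. The medians of both subunits are near -0.2 (-0.19 and -0.20), that of the assembly factors is 0.26, and those of the remaining lists lie between -0.22 and -0.04.

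Markers of cell identity were read in the same libraries. The oligodendrocyte markers were present, and all 8 were detected in every library, with Olig1 at 1456 and 1487 FPKM in KO and at 1249 and 1392 FPKM in WT. Marker levels separated by genotype in part: both KO libraries were below for 4 of the 8 lineage markers, among them Mbp, Mag and Mog, and above for 2 of the 8, Olig1 and Olig2. Both KO libraries were also above for 3 of the 4 precursor markers. Precursor markers summed to 285 and 170 FPKM in KO and to 221 and 158 FPKM in WT. Of 7 neuronal markers, which summed to 20.8 and 39.0 FPKM in KO and to 15.8 and 31.1 FPKM in WT, 3 were tested and 2 of these were above. Endothelial markers followed the library number, summing to 28.2 FPKM in KO 2 and 28.0 FPKM in WT 2, against 0.038 FPKM in KO 1 and 0.005 FPKM in WT 1. Pecam1, a defining endothelial gene, was at most 0.002 FPKM, and Cldn5 made up most of the sum. Astrocyte markers summed to 1.72 and 15.2 FPKM in KO and to 2.30 and 6.62 FPKM in WT, and microglial markers to 4.09 and 9.95 FPKM in KO and to 1.45 and 9.25 FPKM in WT. Erythroid markers, mainly globins, summed to 295 and 524 FPKM in KO and to 350.2 and 563 FPKM in WT. The part of these differences in the values of the mitochondrial ribosome was not tested.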

How the data were processed

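FPKM values were taken as deposited by the authors in 1 table with a column per library. Per the submitters' processing notes, TopHat and the mm10 build were used; the sources used here do not name the program that estimated FPKM, its annotation, filters or strand setting. The analysis was run on log2(FPKM + 1), where fold changes of low genes are understated. R 4.3.3 and limma 3.58.1 were run on the 10754 rows at 1 FPKM or more in at least 2 libraries, with genotype as the only term and a moderated variance that follows the mean. Tests were two-sided, and p-values were adjusted over all rows by the Benjamini-Hochberg method (threshold 0.05). SE is that of the log2 fold change.

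Low FPKM values stepped by whole reads, and 1 FPKM on 1 kb stood for about 39.7, 39.1, 37.5 and 43.7 reads in KO 1, KO 2, WT 1 and WT 2. By this estimate the 77 genes had at least 139 reads and medians of 2337 to 2949 per library. These figures are approximate, since the transcript lengths behind the FPKM are not given, so no counting interval is printed.

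The 77 genes, the gene lists and the rule for named genes were chosen with earlier results of these data known. Named with all values were the 6 genes of highest mean, up to 10 lower and 6 higher genes by p among those with non-overlapping groups and a mean of at least 2 FPKM, the stalk, the S18 relatives, Mrps30 and Mrps36, and from each list up to 3 genes of largest fold change with Dap3, Gadd45gip1, Tufm, Tfam and Lrpprc. Genes beside or overlapping them, Mrps12, Mrps34, Mrpl40, Mrpl48 and the marker genes were named after their values were seen. Some genes of the lists are not reported here. Protein sequences were not used here. Alternatives covered pseudocount, filter, scaling, variance model, trends, single libraries and library number.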

Additional observations from a re-analysis of the deposited data

How the results depend on the processing

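Under all 13 alternatives 0 of the 77 genes passed (smallest adjusted p 0.413, with the replicate block). The count of all genes called stayed at 0 throughout, with between 322 and 1123 rows at an unadjusted p under 0.05. The median of the 77 genes was negative under all 13, between -0.20 and -0.099 (TPM), and -0.14 with length and level trends removed. The large subunit median was -0.19 (pseudocount 0.1), -0.094 (TPM), -0.17 (quantile normalization) and -0.097 (trends removed), and between -0.22 and -0.16 when single libraries were left out. The small subunit median was -0.11 (TPM) and -0.13 (quantile normalization). Genes with both KO libraries above numbered 9 (11.7%, TPM), 10 (13.0%, quantile normalization) and 13 (16.9%, trends removed), against 21.7%, 16.2% and 15.0% of all rows. They numbered 13 without KO 1, 11 without KO 2, 15 without WT 1 and 14 without WT 2, and those below numbered 39 to 45 (45 without WT 2). Of all rows 30.5% to 35.5% were then above and 32.7% to 36.6% below, since a separation asks for fewer libraries in order. With the 23 genes that share exons left out, an alternative chosen after seeing the data, the median was -0.17.

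The library numbers were tried as a pairing, though no label says that they mark one. Differences between library 2 and library 1 in KO and WT correlated at 0.29 across all tested rows (genes are not independent replicates). With the replicate block 0 genes passed, 1025 of 10754 rows had an unadjusted p under 0.05 and 6 of the 77 did. Without it 608 of 10754 rows and 3 of the 77 did, so the count rose over all rows as well.

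Signs were kept under every alternative by 38 genes with negative and 7 with positive values, and 32 turned under at least 1. Among the named genes 29 values were reversed. With TPM, Mrpl33 was at 0.0017, Mrpl52 at 0.0024 and Mrps18a at 0.0048. With quantile normalization they were at 0.075, 0.039 and 0.020. With trends removed, Mrpl52 was at 0.15, Mrps18c at 0.13 and Chchd1 at 0.023. When single libraries were left out, log2 fold changes lay between -0.75 and 0.22 (Dap3), -0.18 and 0.99 (Lrpprc), -0.16 and 0.64 (Mrpl10), -0.00076 and 0.17 (Mrpl28), -0.24 and 0.047 (Mrpl52), -0.40 and 0.22 (Mrps18a), -0.36 and 0.56 (Mrps18b), -0.49 and 0.26 (Mrps18c), -0.46 and 0.18 (Mrps30), -0.59 and 0.012 (Mrps36), -0.56 and 0.016 (Mrps7), -0.53 and 0.15 (Myc), -1.12 and 0.047 (Polg2), -0.033 and 1.07 (Tfam), and -0.98 and 0.74 (Yy1). The cause was not tested. What depth alone limits was not tested, since the files hold no counts.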
